A study of Homo sapiens with 24 samples.

Results

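The genes described here encode the core machinery of microRNA production and RNA interference. They are the Microprocessor subunits DROSHA and DGCR8, the export receptor XPO5, the cytoplasmic nuclease DICER1 with its partners TARBP2 and PRKRA, and the Argonautes AGO1, AGO2, AGO3 and AGO4. They were chosen by name, through the Ensembl identifiers of the deposited gene tables, and all 10 were found among 37416 listed genes. RNA had been sequenced from 4 human breast cancer lines, BT549, HCC1806, MDAMB231 and MDAMB468, which the series treats as triple-negative. Cells of each line had been transduced with lentivirus for 24 h. The virus encoded a short hairpin directed at ADAR1 (the shADAR1 arm) or a hairpin with no target (the shNT arm), so that all 8 groups expressed a hairpin and none was a parental, untransduced culture. Puromycin selection (2 µg/ml, 72 h) followed in every group, and 3 libraries described as biological replicates represented each. The labels do not give the hairpins' sequences or say whether more than 1 was used against ADAR1.

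A primary microRNA transcript is cut in the nucleus by the Microprocessor, in which DROSHA is the nuclease and DGCR8 the RNA-binding partner. The hairpin that is released leaves the nucleus with XPO5 and is cut again by DICER1, usually in the company of TARBP2 or PRKRA, and one strand is then loaded into an Argonaute protein. Argonautes recruit GW182 proteins, which bring deadenylases and decapping enzymes to the target mRNA, and AGO2 can also slice a fully matched target. Short hairpin RNAs such as those used here enter the same route, downstream of or through the Microprocessor depending on their design. ADAR1, the product of ADAR, edits adenosine to inosine in double-stranded RNA, primary microRNAs among them, and has been described as a binding partner of DICER1.

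Total counts ran from 10370645 to 97218217 per library (median 51996976). All 10 genes passed the filter on low counts that left 21352 genes for testing, with 256 to 40251 counts per library, and the coefficient of variation within a group had a median of 5.91% (range 0.663% to 20.8%). Epithelial markers (EPCAM, KRT8, KRT18, KRT5, CDH1) averaged under 1 CPM (counts scaled to the size of the library) in BT549 and were high in HCC1806 and MDAMB468, with EPCAM at 285 and 283 CPM. MDAMB231 lay between for EPCAM (8.57 CPM), KRT8 (501 CPM) and KRT18 (244 CPM). It had under 1 CPM of KRT5 (0.0131), CDH1 (0.158) and KRT14 (0.183), as BT549 did. KRT14 averaged 127.5 CPM in HCC1806 and 19.7 CPM in MDAMB468. Of 3 mesenchymal markers, VIM and ZEB1 averaged 2335 and 120.5 CPM in BT549 and 4685 and 119 CPM in MDAMB231. The third, CDH2, averaged 237 CPM in BT549 but 0.525 CPM in MDAMB231, below HCC1806 (28.1 CPM). Of 6 listed markers of other cell types, PTPRC (leukocytes), CD3E (T cells), VWF (endothelium) and ALB (hepatocytes) averaged at most 0.537 CPM in every line. PECAM1 reached 4.34 CPM in MDAMB231, and CD68, a lysosomal gene abundant in macrophages, averaged 2.37 to 89.2 CPM. The oestrogen receptor gene ESR1 averaged 20.3 CPM in HCC1806 and 8.01 CPM in MDAMB468, against under 1 CPM in the other lines. The progesterone receptor gene PGR averaged at most 0.574 CPM in every line, and ERBB2 averaged 87.7 to 94.6 CPM. Whether reads were counted by strand is not stated, so reads of overlapping antisense transcripts cannot be told apart, and reads of PRKRA may be shared with processed pseudogenes. P-values measure the spread between libraries labelled as biological replicates.

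ADAR (ENSG00000160710) was lower in shADAR1 in every line. In BT549 the shNT libraries had 519, 503 and 527 CPM and the shADAR1 libraries 132, 117 and 155, all CPM here being scaled by edgeR's TMM factors. In MDAMB231 the values were 276, 297 and 305 CPM against 54.6, 66.3 and 70.9. In HCC1806 they were 370, 334 and 358 CPM against 86.5, 128 and 137, and in MDAMB468 408, 397 and 444 CPM against 122, 169 and 173. The arms did not overlap in any line. The mean level left in shADAR1 was 21.8% of shNT in MDAMB231, 26.1% in BT549, 33.1% in HCC1806 and 37.1% in MDAMB468. The log2 fold changes were -2.19 ± 0.15 (SE) in MDAMB231, -1.94 ± 0.15 in BT549, -1.59 ± 0.15 in HCC1806 and -1.43 ± 0.15 in MDAMB468, with n = 3 libraries per arm. By edgeR's quasi-likelihood test, the adjusted p was 6.83e-09, 1.21e-07, 4.55e-06 and 3.18e-05 in that order (Benjamini-Hochberg over the 21352 genes). When only the 6 libraries of HCC1806 were fitted, the edgeR adjusted p of ADAR in that line was 0.213. The size of the ADAR effect was not shown to differ between lines by edgeR's joint test (unadjusted p = 0.00469, adjusted p = 0.622), although it did with the replicate number as a block (adjusted p = 0.0129).

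Most transcripts of the machinery differed little between the arms. DICER1 was the member that passed the threshold of the main test, which left the replicate numbers out. DICER1 was higher in MDAMB231 (log2 fold change 0.31) and in the mean effect over the 4 lines (0.18). It was the only member called in edgeR's main test (adjusted p under 0.05): 1 of 10 in MDAMB231, where 2.01% of all genes tested were called, and 1 of 10 in the mean effect, where 2.96% were. No member was called in BT549, HCC1806 or MDAMB468, where 0.473%, 0.0468% and 0.0375% of all genes were called. In simulated data the tests within a single line recovered 0% to 4% of genes with a true log2 change of 0.322. At a true change of 0.585 they recovered 46% to 54%. A missing call within a single line therefore says little about changes as small as those of DICER1. Each simulated gene changed by the same fold in all 4 lines, and for such genes the test of the mean effect recovered 70% and 84% at these sizes. A mean as small as the 0.18 of DICER1, or a change that differs between lines, was not simulated. With the replicate number as a block, DICER1 and AGO3 were called in BT549 (beside 5.14% of all genes). In MDAMB231 DICER1, AGO1, AGO2 and TARBP2 were (beside 11.4%), and in HCC1806 none (beside 2.1%). With the block in BT549, HCC1806 and MDAMB231 only, chosen after seeing the data, DICER1 and AGO2 were called in the mean effect (beside 9.55%). Over the 10 genes the median log2 fold change was -0.02 in BT549, -0.01 in HCC1806, 0.03 in MDAMB231, -0.01 in MDAMB468 and 0.0085 in the mean effect. The same median over all genes tested lay between 0 and 0.0183. At an unadjusted p under 0.05 edgeR called DICER1 and AGO3 in BT549, DICER1 and AGO1 in MDAMB231, none in HCC1806 or MDAMB468, and DICER1, AGO2 and AGO3 in the mean effect. The corresponding shares of all genes were 6.42%, 11.7%, 4.35%, 3.76% and 12.8%.

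**Figure D1:**
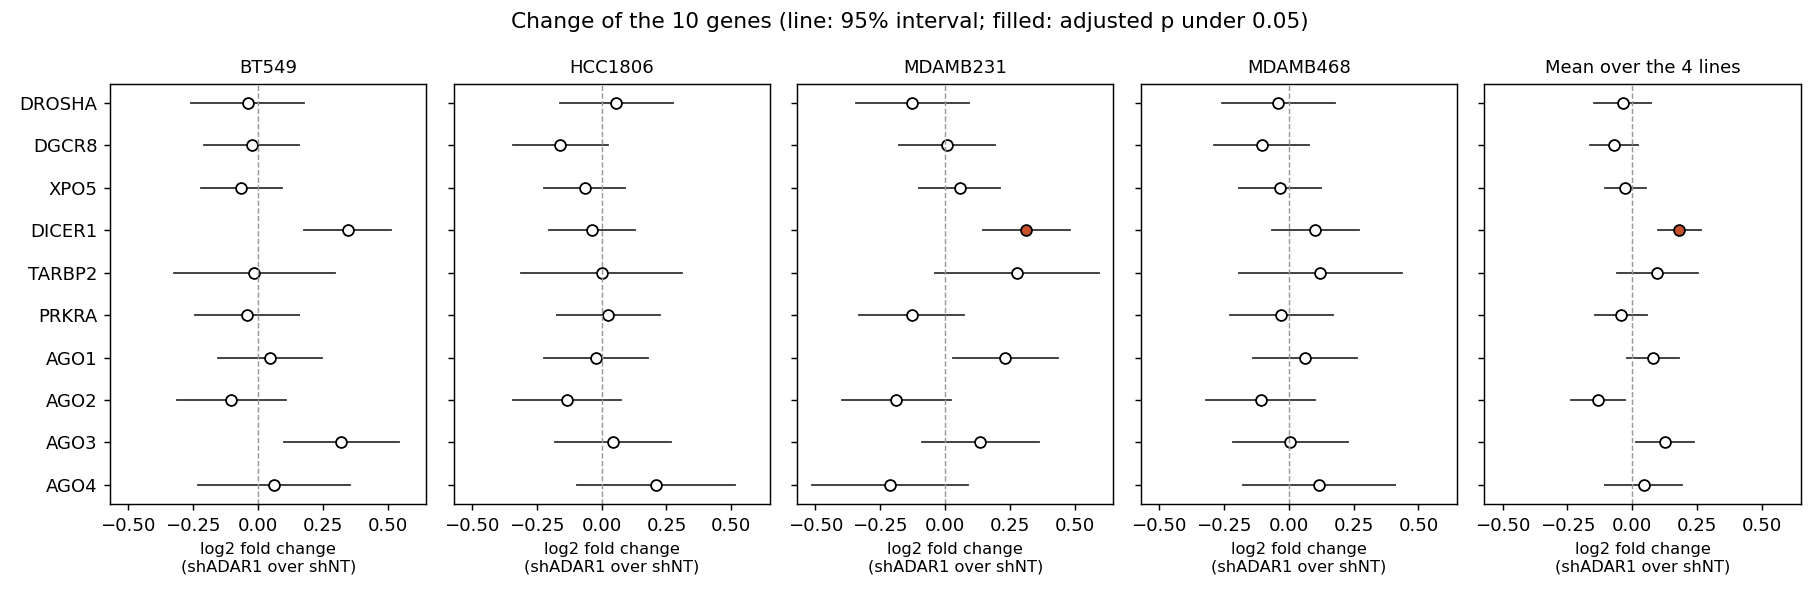
Log2 fold change (shADAR1 over shNT, x axis) of the 10 genes in each line and in the mean over the 4 lines; points are edgeR estimates, lines their 95% intervals, and filled points have an adjusted p under 0.05. DICER1 in MDAMB231 (0.31) and in the mean (0.18) are the filled points, and all other estimates lie between -0.21 and 0.35.

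DROSHA, the nuclease of the Microprocessor, had similar levels in both arms. In shNT it averaged 169 ± 6.41 CPM (SD, n = 3) for BT549, 185 ± 13.2 for HCC1806, 139 ± 23.4 for MDAMB231 and 142 ± 1.22 for MDAMB468. The shADAR1 means were 164 ± 9.26, 192 ± 23.1, 128 ± 12.5 and 138 ± 5.34 CPM in that order, and the arms overlapped in all 4 lines. In MDAMB231 replicate 1 was the lowest library of both arms, with 113 and 114 CPM against 131 to 155 CPM in the others. The mean log2 fold change of DROSHA over the lines was -0.04 (95% interval -0.15 to 0.07; edgeR adjusted p = 0.901). DGCR8, its RNA-binding partner, averaged 63.7 ± 2.54, 75.3 ± 5.82, 67.9 ± 2.77 and 91.5 ± 2.12 CPM in shNT of BT549, HCC1806, MDAMB231 and MDAMB468. Its mean log2 fold change was -0.07 (interval -0.16 to 0.02; edgeR adjusted p = 0.570). In MDAMB468 the 3 shADAR1 libraries, at 80.1, 88.5 and 86.8 CPM, lay below the 3 shNT libraries, at 89.8, 93.9 and 90.8, and in the other lines the arms overlapped. The edgeR estimate for DGCR8 in MDAMB468 was -0.10 ± 0.09 (adjusted p = 1), so this separation was within the spread that the model allows.

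The ratio of DROSHA to DGCR8, taken per length as the log2 ratio of deposited RPKM (reads scaled to gene length and library size), varied between lines more than between arms. It was 1.32 ± 0.09 (SD, n = 3) in BT549 shNT, 1.20 ± 0.21 in HCC1806, 0.93 ± 0.31 in MDAMB231 and 0.55 ± 0.03 in MDAMB468. In shADAR1 it was 1.30 ± 0.06, 1.42 ± 0.26, 0.82 ± 0.27 and 0.61 ± 0.05. DROSHA therefore exceeded its partner per length in every group, by the least in MDAMB468. DGCR8 was highest in that line, above HCC1806 as the next line (edgeR adjusted p = 0.00817). HCC1806 and MDAMB231 (adjusted p = 0.155) and MDAMB231 and BT549 (0.408) did not differ for DGCR8 beyond their spread. For DROSHA the order was HCC1806, BT549, MDAMB468 and MDAMB231, and of neighbours in it only BT549 and MDAMB468 differed (edgeR adjusted p = 0.0446).

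XPO5, the receptor that carries microRNA precursors out of the nucleus, showed the smallest mean change of the 10 genes. In shNT the BT549 mean was 126 ± 12.1 CPM (SD, n = 3), that of HCC1806 133 ± 5.87, that of MDAMB231 171 ± 6.16 and that of MDAMB468 135 ± 4.46. The shADAR1 means were 121 ± 5.74, 127 ± 4.87, 177 ± 9.99 and 132 ± 3.58 CPM. The arms overlapped in every line, and the mean log2 fold change was -0.03 (95% interval -0.10 to 0.05; edgeR adjusted p = 0.904). MDAMB231 stood above the other lines in shNT, and MDAMB468 was the next (edgeR adjusted p = 0.00051). MDAMB468, HCC1806 and BT549 did not differ from their neighbours in that order (adjusted p = 0.823 and 0.404).

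DICER1 (ENSG00000100697) lies on chromosome 14 at 95086228 to 95158010, on the minus strand, as the tables list it. Its 3′ UTR is known as a target of miR-103 and miR-107, microRNAs that lower DICER1 in breast cancer cells, and let-7 has been described as acting on sites in its coding sequence. The mature sequences are shown because their seeds decide which stretches of the DICER1 transcript can pair with them. They come from RefSeq (GRCh38.p14), with bases 2 to 8, the seed, in capitals. miR-103a-3p and miR-107 share a seed and differ near the 3′ end, and let-7a-5p has another seed.
miR-103a-3p: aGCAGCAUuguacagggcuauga
miR-107: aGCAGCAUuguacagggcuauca
let-7a-5p: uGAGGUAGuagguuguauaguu

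The 3′ UTR of the DICER1 transcript ENST00000343455.7 in GENCODE 29 (4270 bases) was searched on the transcript strand for ATGCTGC, the complement of the miR-103 and miR-107 seed. It held 5 matches, given here with their surroundings, on GRCh38, minus strand, and with the match in capitals.
chr14:95089455-95089477: tcacacctaaaatATGCTGCaga
chr14:95088854-95088876: gatgcttcgtggaATGCTGCatt
chr14:95087650-95087672: cgcagtcctaactATGCTGCgtt
chr14:95086379-95086401: tatttaccatcacATGCTGCagc
chr14:95086327-95086349: tcatacagtaatcATGCTGCaga

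At least 1 such match was present in 12.3% of 19124 3′ UTRs, and in 27.7% of the 1568 UTRs of 3416 to 5124 bases, a length within 20% of that of DICER1. As many as 5 were found in 3 of those 1568 (0.191%), DICER1 included. The let-7 seed match CTACCTC was not found in the DICER1 3′ UTR, and 9.58% of all 3′ UTRs held it. Among the other members, AGO2 also held 5 ATGCTGC matches, in a UTR of 11888 bases, AGO1 held 3 in 10921 bases, AGO4 held 2 in 4285 bases, and AGO3 and TARBP2 held 1 each. DROSHA, DGCR8, XPO5 and PRKRA held none. A match describes the letters only, and these sequences were chosen for display after the DICER1 values were known.

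DICER1 was higher in shADAR1 in the lines in which ADAR had fallen furthest, and the arms overlapped in the others. In BT549 the shNT libraries had 80.6, 83.8 and 77.3 CPM and the shADAR1 libraries 102, 108 and 97.4. In MDAMB231 the values were 161, 151 and 137 CPM against 198, 179 and 180. Every shADAR1 library of these lines lay above every shNT library of the same line. In HCC1806 the arms overlapped, with 198, 164 and 184 CPM in shNT and 186, 169 and 176 in shADAR1. In MDAMB468 they overlapped by a single library, with 149.9, 141 and 148 CPM in shNT against 162, 149.5 and 159 in shADAR1. The mean level in shADAR1 was 127% of shNT in BT549, 124% in MDAMB231, 107% in MDAMB468 and 97.5% in HCC1806.

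By edgeR's quasi-likelihood test the log2 fold change of DICER1 was 0.35 ± 0.08 (SE; 95% interval 0.18 to 0.51) in BT549, with an adjusted p of 0.0545, just above the threshold. It was 0.31 ± 0.08 (interval 0.14 to 0.48; adjusted p = 0.0427) in MDAMB231, 0.10 ± 0.08 (-0.06 to 0.27; adjusted p = 1) in MDAMB468 and -0.04 ± 0.08 (-0.20 to 0.13; adjusted p = 1) in HCC1806. The mean over the lines was 0.18 ± 0.04 (interval 0.10 to 0.26; edgeR adjusted p = 0.0106), and it stayed past the threshold under 7 of 7 other settings and in 24 of 24 fits that left out a library. The single-line calls were less firm. In MDAMB231 the call was lost without shADAR1 replicate 1 (edgeR adjusted p = 0.265) or replicate 3 (0.0662), and without shNT replicate 2 (0.106) or replicate 3 (0.240). It was also lost with RLE scaling (0.0788), with no filter on low counts (0.147) and with only the 6 libraries of the line (0.325), while the log2 fold change stayed between 0.25 and 0.37 in all fits. In BT549 DICER1 was called by DESeq2 (adjusted p = 0.0165), with at least 10 counts in every library (edgeR adjusted p = 0.0298) and with the replicate block (0.00011). The size of the DICER1 effect was not shown to differ between the lines by edgeR's joint test (unadjusted p = 0.0082, adjusted p = 0.775). No member passed that test, which 0.0234% of all genes did. At an unadjusted p under 0.05, where 4.44% of all genes lay, DICER1 was the only member. With the replicate number as a block it did (adjusted p = 0.00443), beside 1002 genes called in that fit.

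**Figure D2:**
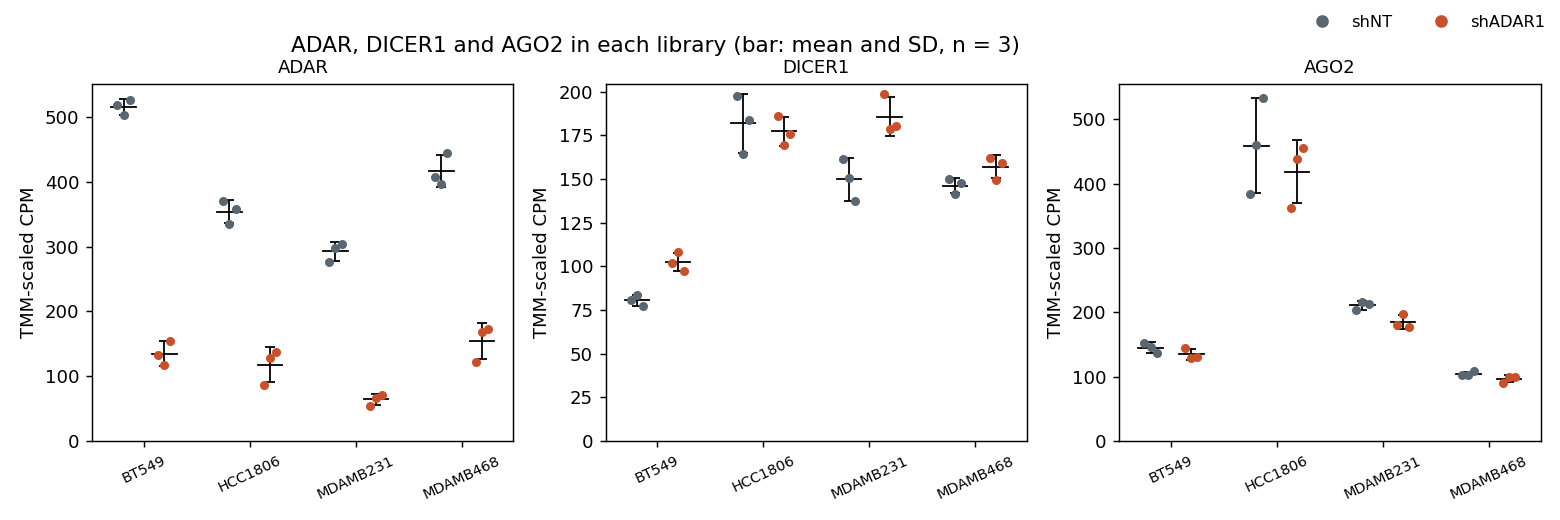
ADAR, DICER1 and AGO2 in every library (y axis, TMM-scaled CPM) by line, with shNT in grey and shADAR1 in orange; horizontal bars are means and error bars SDs of 3 libraries. ADAR was lower in shADAR1 in all 4 lines, DICER1 was separated upwards in BT549 and MDAMB231, and AGO2 was separated downwards in MDAMB231 and MDAMB468.

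In shNT, DICER1 was lowest in BT549, at 80.5 ± 3.26 CPM (SD, n = 3), and highest in HCC1806, at 182 ± 16.7, a ratio of 2.26. MDAMB231 (149.7 ± 12.1 CPM) and MDAMB468 (146 ± 4.45 CPM) lay between these and did not differ from each other (edgeR adjusted p = 0.757). HCC1806 exceeded MDAMB231 (adjusted p = 0.00467), and MDAMB468 exceeded BT549 (2.64e-09). In BT549 the shADAR1 mean of 102 CPM was still under the shNT mean of each other line.

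TARBP2 and PRKRA are double-stranded RNA-binding partners of DICER1, and PRKRA is also an activator of the kinase PKR. TARBP2 was the less abundant of them per length in the shNT group of every line. It made up 41.2% ± 4.77 (SD, n = 3) of their summed RPKM in BT549 shNT, 42.1% ± 3.88 in MDAMB231, 29.2% ± 2.03 in MDAMB468 and 18.1% ± 2.71 in HCC1806. The shares in shADAR1 were 41.8% ± 3.07, 48.9% ± 2.16, 31.3% ± 3.02 and 17.9% ± 2.65 in that order. In MDAMB231 the 3 shares in shADAR1, 51.3%, 48.3% and 47.1%, lay above the 3 in shNT, 45.9%, 42.2% and 38.2%.

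TARBP2 itself had 27.6, 25.5 and 21.3 CPM in MDAMB231 shNT and 34.2, 29.8 and 26.0 in shADAR1. These arms overlapped, with an edgeR log2 fold change of 0.28 ± 0.15 (adjusted p = 0.516, and 0.0468 with the replicate block). In the other lines the estimates for TARBP2 were -0.01, 0.0005 and 0.12 in BT549, HCC1806 and MDAMB468, and the mean was 0.10 (95% interval -0.06 to 0.25; edgeR adjusted p = 0.688). PRKRA had 31.3, 33.7 and 33.3 CPM in MDAMB231 shNT and 31.2, 30.8 and 28.1 in shADAR1, all below the shNT libraries. The edgeR estimate was -0.13 ± 0.10 (adjusted p = 0.707). In the other lines its arms overlapped, and its mean log2 fold change was -0.04 (interval -0.14 to 0.06; edgeR adjusted p = 0.834).

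Between lines PRKRA was among the most variable members. In HCC1806 shNT it had 108, 107 and 132 CPM, against 27.5 to 29.5 in BT549, 31.3 to 33.7 in MDAMB231 and 39.8 to 43.9 in MDAMB468. HCC1806 was 4.15 times BT549, and every neighbouring pair in the order HCC1806, MDAMB468, MDAMB231 and BT549 differed (edgeR adjusted p = 7.66e-12, 0.00399 and 0.0443). The next gene on the opposite strand of chromosome 2, PLEKHA3 (178480468 to 178516462, against 178431414 to 178451512 for PRKRA), had the same order of lines in shNT. PLEKHA3 averaged 97.3 ± 19.8 CPM in HCC1806, 53.1 ± 4.46 in MDAMB468, 36.4 ± 4.24 in MDAMB231 and 21.8 ± 0.21 in BT549. FKBP7, which lies between them on the minus strand, did not share it: it averaged 1.59 CPM in HCC1806 and 6.04 CPM in BT549. TARBP2 varied less, from 17.8 ± 1.93 CPM in MDAMB468 to 26.4 ± 2.26 in HCC1806, and no neighbouring pair of lines differed for it (edgeR adjusted p = 0.145 to 0.628).

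AGO2, the Argonaute with slicing activity in this family, was lower in shADAR1 by a small amount in each line, and the change did not pass the threshold. The shNT libraries of MDAMB231 had 203, 216 and 213 CPM and the shADAR1 libraries 180.5, 197 and 177, and in MDAMB468 the values were 102, 102 and 108 CPM against 90.2, 99.3 and 100. In these lines all shADAR1 libraries lay below all shNT libraries. In BT549 (153, 146 and 136 CPM against 145, 129 and 130.4) and HCC1806 (384, 460.0 and 533 CPM against 362, 437 and 456) the arms overlapped. The log2 fold change was -0.19 in MDAMB231, -0.13 in HCC1806, -0.11 in MDAMB468 and -0.10 in BT549. The mean was -0.13 ± 0.05 (SE; 95% interval -0.24 to -0.03), with an unadjusted p of 0.0151 and an adjusted p of 0.217 by edgeR. Estimates below 0 in all 4 lines were found for 9.41% of all genes tested. With the replicate number as a block in the 3 lines whose numbers were read as pairs, the mean passed (-0.13, edgeR adjusted p = 0.00475). AGO2 in MDAMB231 passed with the block in all lines (-0.19, edgeR adjusted p = 0.0199).

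The tables list AGO2 (ENSG00000123908) on chromosome 8 from 140531165 to 140635619, whereas GENCODE 29 starts the gene at 140520156. The stretch from 140520156 to 140529501, on the same strand, is a row of its own (ENSG00000259758) without a symbol. It covers most of what GENCODE 29 gives as the AGO2 3′ UTR. Its reads made up 43.2% to 52.4% of the sum of both rows (group means), so that the AGO2 level per length refers to the shorter model of 4824 bases. With the rows summed, an alternative added after the files were seen, the mean log2 fold change was -0.12 (edgeR adjusted p = 0.279), and the estimates were -0.06, -0.13, -0.15 and -0.13 in BT549, HCC1806, MDAMB231 and MDAMB468. Among the genes beside AGO2, the kinase gene PTK2 averaged 373 ± 27.4 CPM in HCC1806 shNT and 80.8 ± 1.43 in MDAMB468, the highest and lowest lines as for AGO2. CHRAC1, which encodes a chromatin accessibility subunit, averaged 87.8 ± 12.5 and 19.1 ± 1.05 CPM in the same lines. DENND3 was also highest in HCC1806 (107 ± 18.8 CPM), but its lowest mean was in BT549 (16.6 ± 1.13 CPM, against 17.8 ± 0.51 in MDAMB468).

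AGO1, AGO3 and AGO4 are neighbours on the plus strand of chromosome 1, at 35869808 to 35929610, 35930718 to 36072500 and 35808172 to 35857890. AGO1 was higher in shADAR1 of MDAMB231 by 0.23 ± 0.10 on the log2 scale (95% interval 0.03 to 0.43; edgeR adjusted p = 0.319, and 0.00443 with the replicate block). Its libraries there overlapped, with 77.9, 94.0 and 103 CPM in shNT and 95.5, 110 and 118 in shADAR1; within each replicate number the shADAR1 library was the higher. In MDAMB468 the arms of AGO1 were apart but close, with 248, 239.7 and 247 CPM in shNT against 254, 257 and 257. The mean log2 fold change of AGO1 was 0.08 (interval -0.02 to 0.18; edgeR adjusted p = 0.538).

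AGO3 was higher in BT549 shADAR1, with 80.7, 83.9 and 82.3 CPM against 62.6, 64.5 and 70.5 in shNT. The arms did not overlap there. The edgeR log2 fold change was 0.32 ± 0.11 (95% interval 0.10 to 0.54; adjusted p = 0.332, and 0.00376 with the replicate block). In the other lines the arms of AGO3 overlapped, and the mean was 0.13 (interval 0.02 to 0.24; unadjusted p = 0.027, edgeR adjusted p = 0.288). AGO4 had overlapping arms in all lines. Its estimates ran from -0.21 in MDAMB231 to 0.21 in HCC1806, and the mean was 0.04 (interval -0.11 to 0.19; edgeR adjusted p = 0.937).

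Counted over the 10 genes, the arms did not overlap for 2 members in BT549 (DICER1 and AGO3, both higher in shADAR1) and for none in HCC1806. They did not overlap for 3 members in MDAMB231 (DICER1 higher, AGO2 and PRKRA lower) and for 3 in MDAMB468 (AGO1 higher, AGO2 and DGCR8 lower). The share of all genes without overlap was 14.7% in BT549, 14.2% in MDAMB231, 11% in MDAMB468 and 7.58% in HCC1806.

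**Figure D3:**
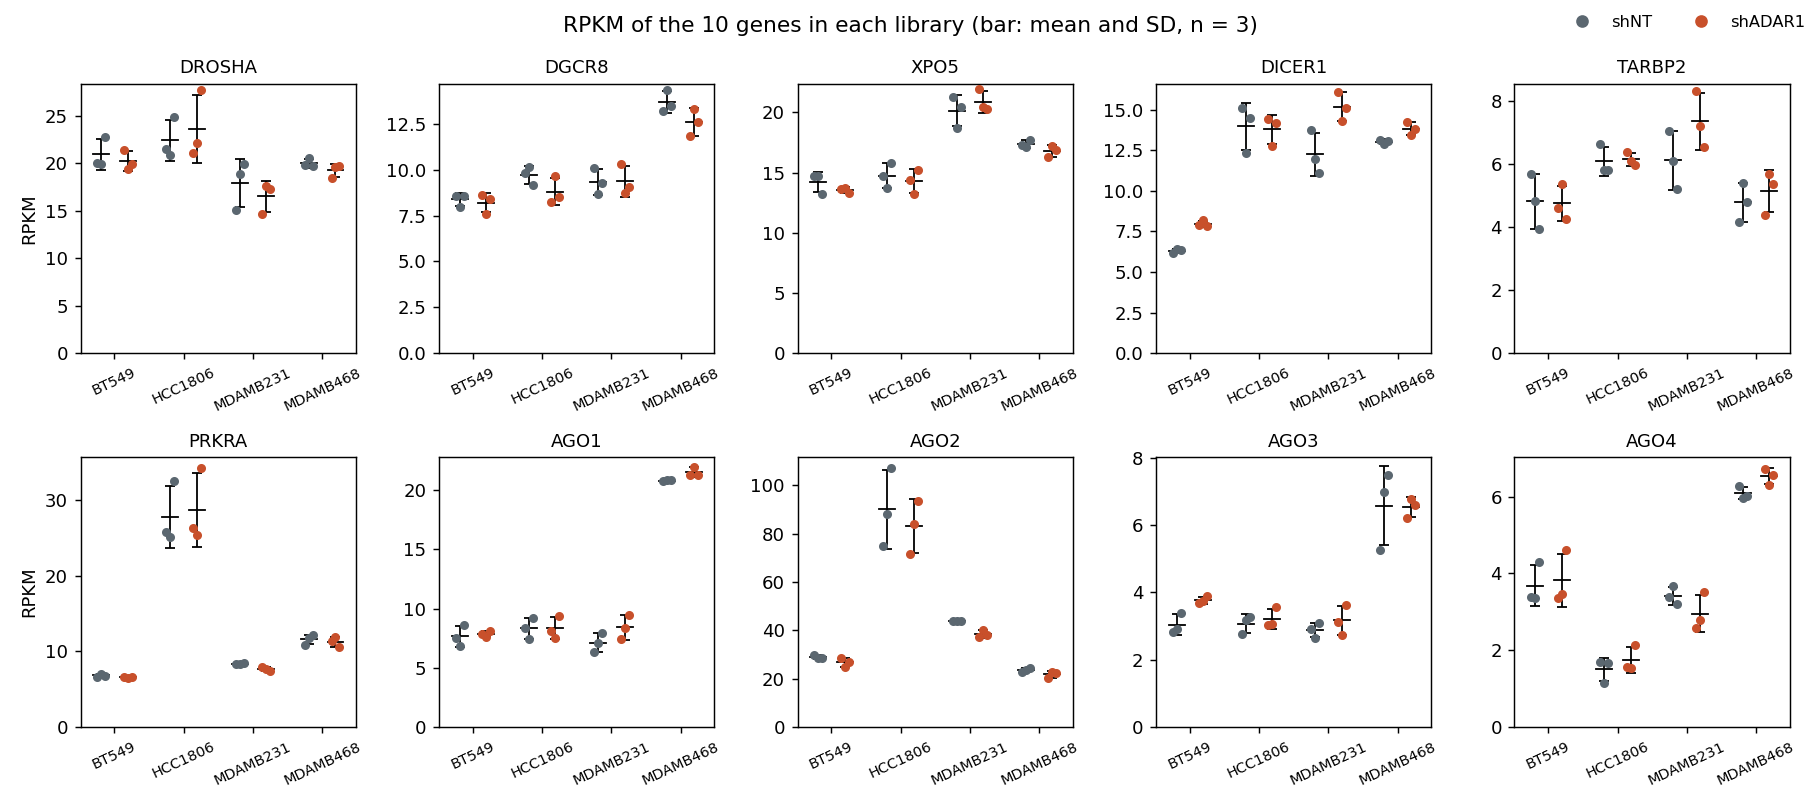
Deposited RPKM (y axis, from 0, a separate scale per gene) of the 10 genes in every library by line, with shNT in grey and shADAR1 in orange; horizontal bars are means and error bars SDs of 3 libraries. AGO2 and PRKRA stand out in HCC1806, AGO1, AGO3 and AGO4 in MDAMB468, and DICER1 is lowest in BT549.

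Lines differed more than arms for each of the 10 genes. All 10 genes differed between lines in shNT by edgeR's joint test, as did 85.9% of all genes tested. Of single pairs of lines, 63.5% of all genes differed between HCC1806 and BT549, 56.5% between MDAMB231 and BT549, 61% between MDAMB468 and BT549, 59% between MDAMB231 and HCC1806, 62.9% between MDAMB468 and HCC1806, and 61.8% between MDAMB468 and MDAMB231. The ratio of the highest to the lowest line was 4.41 for AGO2, 4.15 for PRKRA, 3.51 for AGO4, 2.67 for AGO1, 2.26 for DICER1 and 2.10 for AGO3. It was 1.48 for TARBP2, 1.44 for DGCR8, 1.35 for XPO5 and 1.32 for DROSHA. The range was thus widest for AGO2 and PRKRA, and narrowest for DROSHA and XPO5.

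In shNT AGO2 followed the order HCC1806 (459 ± 74.3 CPM, SD, n = 3), MDAMB231 (211 ± 6.85), BT549 (145 ± 8.50) and MDAMB468 (104 ± 3.55), and each neighbouring pair differed (edgeR adjusted p = 1.89e-09, 7.82e-05 and 0.000274). The other Argonautes were all highest in MDAMB468. There AGO1 averaged 245 ± 4.58 CPM against 114 ± 9.50 in HCC1806, 102 ± 8.37 in BT549 and 91.6 ± 12.7 in MDAMB231. AGO3 averaged 126 ± 21.6 CPM in MDAMB468 against 68.0 ± 5.76, 65.9 ± 4.16 and 59.9 ± 4.25 in the same order of lines. For both genes MDAMB468 exceeded HCC1806 (edgeR adjusted p = 9.54e-10 for AGO1 and 1.94e-07 for AGO3), whereas the lower neighbours did not differ (adjusted p = 0.176 to 0.723). AGO4 averaged 40.5 ± 1.77 CPM in MDAMB468, 27.7 ± 2.93 in BT549, 24.7 ± 2.18 in MDAMB231 and 11.5 ± 2.18 in HCC1806. BT549 and MDAMB231 did not differ for AGO4 (edgeR adjusted p = 0.371), and HCC1806 lay below MDAMB231 (8.04e-07).

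Of the genes next to this cluster, ADPRS (36088875 to 36093932), the gene after AGO3, was also highest in MDAMB468, at 61.7 ± 2.37 CPM against 25.7 to 30.9 in the other lines' shNT means. TRAPPC3 (36136570 to 36156053), the next gene, shared this with 59.4 ± 2.70 CPM against 29.9 to 46.3. MAP7D1 (36155579 to 36180849) was lowest there, at 181 ± 5.67 CPM against 295 to 317. On the other side, CLSPN (35720218 to 35769967) averaged 136 CPM in MDAMB468 and 153 CPM in BT549.

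The promoters of the clustered Argonautes are shown because these genes shared their highest line. They are the RefSeq windows of 250 bases before to 50 after the start (GRCh38.p14, plus strand), of which those of AGO1 and AGO3 lie inside the gene as the tables list it, with the GC box GGGCGG and its reverse complement CCGCCC in capitals.
AGO1 chr1:35882959-35883258: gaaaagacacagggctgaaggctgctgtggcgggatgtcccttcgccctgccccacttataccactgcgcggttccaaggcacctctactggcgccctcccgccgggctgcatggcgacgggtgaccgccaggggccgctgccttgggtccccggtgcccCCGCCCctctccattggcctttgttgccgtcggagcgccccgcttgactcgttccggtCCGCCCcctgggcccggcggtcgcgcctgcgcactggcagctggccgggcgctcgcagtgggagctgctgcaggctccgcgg
AGO3 chr1:35930855-35931154: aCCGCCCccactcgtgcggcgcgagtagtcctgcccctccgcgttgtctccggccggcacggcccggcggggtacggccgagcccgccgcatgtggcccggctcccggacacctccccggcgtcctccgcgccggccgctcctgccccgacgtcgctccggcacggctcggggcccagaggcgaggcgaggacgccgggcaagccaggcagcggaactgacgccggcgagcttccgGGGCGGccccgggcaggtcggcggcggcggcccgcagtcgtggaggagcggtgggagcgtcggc
AGO4 chr1:35807766-35808065: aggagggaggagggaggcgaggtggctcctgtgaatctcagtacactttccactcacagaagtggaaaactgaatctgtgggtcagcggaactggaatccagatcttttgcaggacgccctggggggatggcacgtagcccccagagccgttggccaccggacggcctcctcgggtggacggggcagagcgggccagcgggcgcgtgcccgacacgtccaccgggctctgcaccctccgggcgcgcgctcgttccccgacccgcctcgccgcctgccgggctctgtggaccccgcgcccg

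AGO1 and AGO3 held 2 GC boxes each and AGO4 held 0, while 44.9% of 34943 RefSeq promoter windows of this length held at least 1 on either strand. AGO1 held 1 CCAAT (34.6% of windows held it) and the others held 0. None of the 3 held TATAAA (11.6%) or CACGTG (7.23%). Their GC content was 72.3%, 80.0% and 69.0%, against a median of 58.7% over all windows. The windows thus share a high GC content and not the GC box. A high GC content was not particular to them. It was 80.3% for DGCR8, 71.7% to 79.0% for PRKRA and 71.7% for XPO5. The windows of DROSHA (63.0%) and TARBP2 (59.0% to 68.0%) were lower, and those of DICER1 ran from 34.0% to 73.7%.

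The composition of the Argonaute family differed between lines, measured as each gene's share of the summed AGO1 to AGO4 RPKM. AGO2 made up 87.3% ± 1.65 (SD, n = 3) of the sum in HCC1806 shNT, 76.6% ± 1.07 in MDAMB231, 66.8% ± 2.91 in BT549 and 41.4% ± 0.18 in MDAMB468. AGO1 took most of the rest, from 8.20% ± 1.16 in HCC1806 to 36.5% ± 1.08 in MDAMB468. In MDAMB468 AGO1 (20.8 ± 0.08 RPKM) was nearly as high per length as AGO2 (23.6 ± 0.78 RPKM), whereas in HCC1806 AGO2 reached 90.0 ± 16.3 RPKM and AGO1 8.34 ± 0.90. The AGO2 share had a lower mean in shADAR1 in each line, at 86.2% ± 1.27 in HCC1806, 72.6% ± 2.68 in MDAMB231, 63.4% ± 2.11 in BT549 and 38.5% ± 1.20 in MDAMB468. The 3 shADAR1 shares lay below the 3 shNT shares in MDAMB231 (69.5% to 74.3% against 75.6% to 77.7%) and MDAMB468 (37.1% to 39.3% against 41.1% to 41.5%). They overlapped in BT549 and HCC1806, and no test was run on the shares. Because the AGO2 row lacks most of its 3′ UTR in these tables, its share depends on the gene length used: from counts not divided by length it was 70.2%, 54.5%, 42.5% and 20.2% in shNT of HCC1806, MDAMB231, BT549 and MDAMB468, with the order of lines kept.

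**Figure D4:**
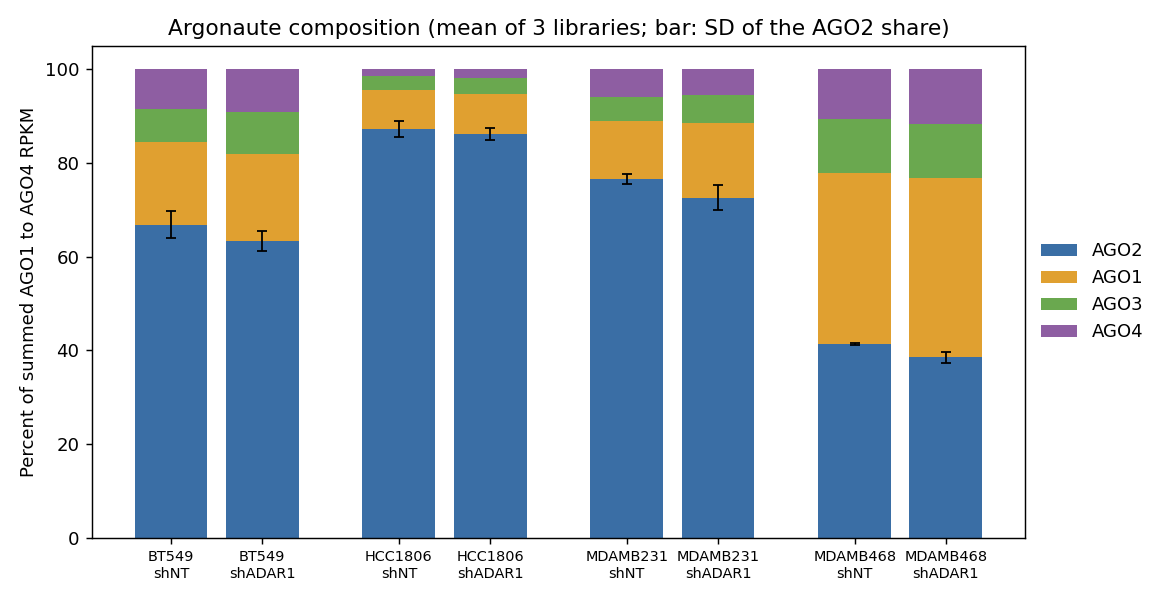
Share of AGO1, AGO2, AGO3 and AGO4 in their summed RPKM (y axis, percent) for the 8 groups, as means of 3 libraries, with the SD of the AGO2 share as an error bar. AGO2 takes 87.3% in HCC1806 shNT and 41.4% in MDAMB468 shNT, where AGO1 takes 36.5%.

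Compared per length within a line, the AGO2 row was the highest of the 10 genes in all 8 groups. This order rests on the short AGO2 row. With the adjoining row (ENSG00000259758) added, over 14170 bases, AGO2 had 16.9 ± 1.18 RPKM in MDAMB468 shNT, below AGO1, DROSHA and XPO5, and 18.6 ± 0.75 RPKM in BT549 shNT, below DROSHA. In HCC1806 (53.9 ± 9.24 RPKM in shNT) and MDAMB231 (30.2 ± 0.48) it remained the highest. By the row as listed, DROSHA and XPO5 followed in BT549 (20.9 ± 1.61 and 14.2 ± 0.84 RPKM in shNT), and XPO5 and DROSHA in MDAMB231 (20.1 ± 1.28 and 17.9 ± 2.52 RPKM). In HCC1806 PRKRA came after AGO2, at 27.8 ± 4.09 RPKM, and in MDAMB468 AGO1 did. AGO3, AGO4 and TARBP2 held the lowest places in every group. DICER1 stood at 6.30 ± 0.11 RPKM in BT549 shNT, below AGO1 (7.66 ± 0.90) and PRKRA (6.80 ± 0.22), and at 7.98 ± 0.18 in BT549 shADAR1, above PRKRA (6.58 ± 0.08) and level with AGO1 (7.86 ± 0.26).

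The change of each gene was set beside the strength of the ADAR knockdown, with 4 lines as the points and no test. From the strongest to the weakest knockdown (MDAMB231, BT549, HCC1806 and MDAMB468), DICER1 had log2 fold changes of 0.31, 0.35, -0.04 and 0.10. The lines with the stronger knockdown had the larger DICER1 values, but the largest value was not that of the strongest knockdown. AGO3 had 0.14, 0.32, 0.05 and 0.0069 in the same order, and AGO1 0.23, 0.05, -0.02 and 0.06. AGO2 had -0.19, -0.10, -0.13 and -0.11, TARBP2 0.28, -0.01, 0.0005 and 0.12, and AGO4 -0.21, 0.06, 0.21 and 0.12. DROSHA (-0.13, -0.04, 0.06 and -0.04), DGCR8 (0.0063, -0.02, -0.16 and -0.10), XPO5 (0.06, -0.06, -0.07 and -0.03) and PRKRA (-0.13, -0.04, 0.03 and -0.03) lay between -0.16 and 0.06. The strength of knockdown and other differences between the lines cannot be told apart here.

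The genes that work with the machinery were followed in 5 lists. Among 32 GW182 proteins and silencing effectors, edgeR called 7 in the mean effect (21.88%, beside 2.96% of all genes), 3 higher and 4 lower, and 3 in MDAMB231 (9.375%, beside 2.01%). With the replicate block in the 3 lines whose numbers were read as pairs, 14 of the 32 were called in the mean effect (beside 9.55% of all genes), 6 higher and 8 lower. Within single lines the block called 12 in MDAMB231 (beside 11.4%), 5 in BT549 (beside 5.14%) and 2 in HCC1806 (beside 2.1%). The median log2 fold change of the 32 genes in the mean effect was -0.02, against 0.0183 over all genes. CNOT6, a deadenylase of the CCR4-NOT complex, had 94.7, 94.8 and 97.4 CPM in MDAMB231 shNT and 67.8, 73.3 and 75.6 in shADAR1. In BT549 it had 77.0, 78.6 and 85.0 CPM against 65.7, 68.8 and 70.2, in HCC1806 70.4, 66.1 and 75.5 against 63.4, 59.4 and 63.9, and in MDAMB468 159, 172 and 181 against 139.7, 143 and 153. In all 4 lines every shADAR1 library lay below every shNT library, which was so for 0.328% of all genes. Its log2 fold change was -0.40 ± 0.08 (SE) in MDAMB231 (edgeR adjusted p = 0.00293) and -0.26 ± 0.04 in the mean effect (8.7e-05). The MDAMB231 call of CNOT6 was lost with only the 6 libraries of that line (edgeR adjusted p = 0.0764). CNOT6 was also called in BT549 with the replicate block (edgeR adjusted p = 0.00653) and by DESeq2 (adjusted p = 0.0138). The block called it in MDAMB468 too (edgeR adjusted p = 0.0148), where the numbers were not read as pairs.

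CNOT11, another CCR4-NOT subunit, was lower in the mean effect (-0.28 ± 0.06; edgeR adjusted p = 0.00695) and in MDAMB231 (-0.47 ± 0.12; 0.0387). The call in MDAMB231 was lost without any of 4 of its 6 libraries, shADAR1 replicates 1 and 3 and shNT replicates 2 and 3 (edgeR adjusted p = 0.0505 to 0.306), and with only the 6 libraries of that line (0.337). CNOT11 was also called in BT549 with the replicate block (edgeR adjusted p = 0.000216), with only the 6 libraries of BT549 (0.0251) and by DESeq2 (adjusted p = 0.00987). DCP2, the catalytic decapping enzyme, was higher in the mean effect (0.27 ± 0.05; edgeR adjusted p = 0.00359), with 66.6 ± 3.69 CPM in BT549 shNT and 80.4 ± 3.70 in shADAR1, and 140.1 ± 7.13 and 167.5 ± 9.33 in MDAMB468. The replicate block added calls of DCP2 in MDAMB231 (edgeR adjusted p = 0.000186), BT549 (0.00566) and MDAMB468 (0.0214), where the numbers were not read as pairs. DESeq2 also called DCP2 in MDAMB231 (adjusted p = 0.0448). EIF4E2, a cap-binding translational repressor that acts with GIGYF2, was higher in MDAMB231 (0.42 ± 0.09; edgeR adjusted p = 0.00752) and in the mean effect (0.17 ± 0.04; 0.0214). In MDAMB231 its call was lost without shADAR1 replicate 1 (edgeR adjusted p = 0.0934) or shNT replicate 1 (0.0561) and with only the 6 libraries of that line (0.144). In the mean effect it was lost without BT549 shADAR1 replicate 1 (edgeR adjusted p = 0.0518) or MDAMB468 shNT replicate 2 (0.0502) and with no filter on low counts (0.0730). The block added a call of EIF4E2 in BT549 (edgeR adjusted p = 0.0294).

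The other 3 genes called in the mean effect were named after their values were seen. DCP1A, the decapping activator, was lower (-0.25 ± 0.07; edgeR adjusted p = 0.0485), whereas DCP2 was higher. TNRC6B and TNRC6C, GW182 proteins that bind Argonautes, changed in opposite directions, with -0.16 ± 0.04 (edgeR adjusted p = 0.0456) for TNRC6B and 0.32 ± 0.08 (0.0206) for TNRC6C. The calls of DCP1A and TNRC6B lay at the threshold. DCP1A lost it in 18 of 24 fits that left out a library (edgeR adjusted p up to 0.111), and TNRC6B in 19 of 24 (up to 0.110). With no filter on low counts both were lost (edgeR adjusted p = 0.0628 for DCP1A and 0.128 for TNRC6B), and TNRC6B also with upper-quartile scaling (0.0524). With the replicate block DCP1A (edgeR adjusted p = 0.00361), TNRC6B (0.000373) and TNRC6C (0.00158) were called in MDAMB231, DCP1A in BT549 (0.0376) and TNRC6C in HCC1806 (0.025). TNRC6B was also called in MDAMB231 by DESeq2 (adjusted p = 0.0106) and with at least 10 counts in every library (edgeR adjusted p = 0.0302). The call of TNRC6C in the mean effect held in 24 of 24 fits that left out a library. In MDAMB231 it had 44.4, 37.4 and 44.2 CPM in shNT and 71.8, 48.2 and 55.3 in shADAR1. It was not called there in the main test (edgeR adjusted p = 0.138), and passed in 1 of 6 fits without a library of that line.

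**Figure D5:**
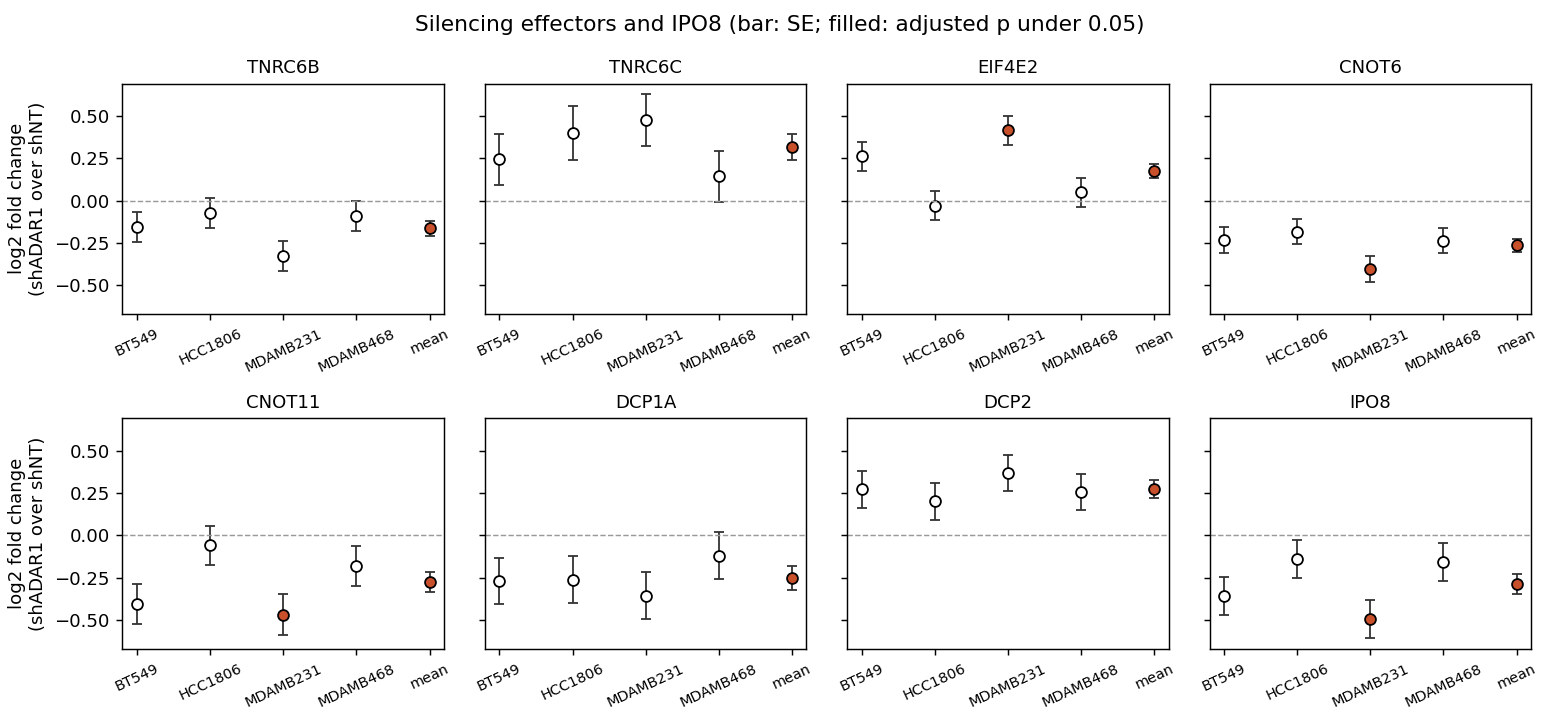
Log2 fold change (shADAR1 over shNT, y axis) of 7 silencing effectors and IPO8 in each line and in the mean over the 4 lines; points are edgeR estimates, error bars SEs, and filled points have an adjusted p under 0.05. CNOT6, CNOT11, DCP1A, TNRC6B and IPO8 lie below 0 in every line, DCP2 and TNRC6C above 0 in every line, and EIF4E2 reaches 0.42 in MDAMB231.

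Of the 20 tested genes (21 listed) of microRNA modification and turnover and of RISC regulation, edgeR called 1 in the mean effect (5%, beside 2.96% of all genes) and the same gene in MDAMB231 (beside 2.01%). It was IPO8, an importin described as binding Argonaute proteins. IPO8 had 97.6, 105 and 101 CPM in MDAMB231 shNT and 61.6, 79.8 and 74.1 in shADAR1, and 62.1, 63.2 and 64.7 CPM against 47.2, 49.3 and 51.7 in BT549. The arms did not overlap in these lines. The log2 fold change was -0.49 ± 0.11 in MDAMB231 (edgeR adjusted p = 0.0186) and -0.29 ± 0.06 in the mean effect (0.00358). The MDAMB231 call of IPO8 was lost without shADAR1 replicate 1 (edgeR adjusted p = 0.181), without shNT replicate 2 (0.081) or replicate 3 (0.061), and with only the 6 libraries of that line (0.0730). In BT549 IPO8 was also called with the replicate block (edgeR adjusted p = 0.00182) and with only the 6 libraries of that line (0.0401). Of the 20 genes the block called 3 in MDAMB231 (beside 11.4% of all genes). With the block in 3 lines 3 were called in the mean effect (beside 9.55%). The next smallest p-values in that list belonged to FXR1 (-0.15; edgeR adjusted p = 0.101) and PUM2 (-0.08; 0.351), both RNA-binding proteins.

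LIN28B, which blocks let-7 maturation, had 401 to 1869 counts in the 6 HCC1806 libraries, 6 to 28 in those of MDAMB468, at most 2 in those of BT549 and 0 in those of MDAMB231. Its summed level was 18.4 CPM of the group total in HCC1806 shNT and 20.7 CPM in shADAR1. HCC1806 was also the line with the highest shNT mean of AGO2, PRKRA, DICER1, DROSHA and TARBP2. The other members had theirs in MDAMB468, or in MDAMB231 for XPO5. LIN28B was singled out after its values were seen.

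None of the other 3 lists had a called member in any line or in the mean effect, by edgeR's main test. With the replicate block 2 chaperone genes and 1 host transcript were called in MDAMB231 (beside 11.4% of all genes) and 1 chaperone gene in HCC1806 (beside 2.1%). With the block in 3 lines 2 chaperone genes and 2 host transcripts were called in the mean effect (beside 9.55%). Of the 13 Microprocessor cofactors, those with the smallest p in the mean effect were SRRT (-0.07; edgeR adjusted p = 0.456), SRSF3 (0.10; 0.569) and ZC3H7A (0.05; 0.667). Of the 9 export and loading chaperone genes they were DNAJA2 (-0.11; 0.406), HSPA4 (-0.08; 0.480) and HSP90AB1 (-0.10; 0.579). Of the 19 microRNA host transcripts in the tables (27 listed), MIR503HG (0.41; edgeR adjusted p = 0.128), MIR222HG (-0.22; 0.162) and MIR155HG (-0.60; 0.192) came first.

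The libraries were made from total RNA depleted of ribosomal RNA and not from size-selected small RNA, so mature microRNAs were not measured as such. The tables list 1419 microRNA hairpin rows, of which 405 were at 0 in all libraries and 321 passed the filter, with a median mean log2 CPM of -2.29. By edgeR none was called in BT549, HCC1806, MDAMB468 or the mean effect, and 1 of 321 was called in MDAMB231 (0.312%, below the 2.01% of all genes called there). It was MIR103A2, a precursor of the miR-103a-3p shown above, which was singled out for having passed. Its row held 0, 0 and 0 counts in MDAMB231 shNT and 2, 16 and 5 in shADAR1 (edgeR adjusted p = 0.0392). Against a floor of 3 counts over the shNT group the summed level in shADAR1 was 6.78-fold higher. This value pools the libraries of each arm and takes no account of their spread, so it is not a lower bound. A single library held 16 of the 23 counts. The other lines did not show such a gap: the summed counts were 26 in shNT and 28 in shADAR1 for BT549, 6 and 14 for HCC1806, and 31 and 20 for MDAMB468. MIR103A2 lies within PANK2, whose log2 fold change in MDAMB231 was 0.07 ± 0.12 (edgeR adjusted p = 0.939). At these counts reads of the hairpin and of its host intron cannot be told apart.

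The genes whose pattern over the 24 libraries was most like that of a member are given as a description, since the libraries share 4 lines and the between-line differences dominate. Among the 12185 genes whose mean log2 CPM was 2 or higher, the highest Pearson r of log2 CPM was 0.968 for DICER1 (with SOCS5), 0.988 for PRKRA (NCKAP1), 0.984 for AGO2 (PGAP6), 0.981 for AGO1 (RARRES1), 0.965 for AGO3 (KLHDC10) and 0.987 for AGO4 (CFDP1). For XPO5 it was 0.951 (ZWINT), for DROSHA 0.938 (GIGYF2), for DGCR8 0.926 (FBXW7) and for TARBP2 0.896 (RPL14). After the mean of each line was subtracted, so that the arms and replicates remained, the highest r was 0.952 for AGO2 (CHMP1A), followed by 0.902 for DICER1 (ARPP19), 0.871 for AGO3 (ZNF460), 0.862 for DROSHA (SMC1A) and 0.86 for XPO5 (CTPS1). It was 0.849 for AGO1 (DYNLL2), 0.847 for TARBP2 (TMEM18), 0.827 for AGO4 (DDHD2), 0.825 for PRKRA (NGLY1) and 0.803 for DGCR8 (RBM14). No gene was the closest to more than 1 member on either scale.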

How the data were processed

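Gene tables from 24 libraries were analysed. Read counts per gene were deposited by the authors as whole numbers, with CPM and RPKM columns that, per the file headers and the values, scale these counts to the library total and the listed gene length. The submitters' processing notes name bcl2fastq, STAR, Subread, featureCounts and edgeR; genome build, annotation and strand setting are not given in the sources used here. Of 37416 genes, 31354 had the start and end of GENCODE 29 (GRCh38).

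Counts were filtered with filterByExpr, scaled by TMM (0.924 to 1.12) and fitted with edgeR 4.0.16 (quasi-likelihood, R 4.3.3) in 1 model of 8 groups (biological coefficient of variation 0.176), with Benjamini-Hochberg adjustment over 21352 genes and a threshold of 0.05. Alternatives were DESeq2 1.42.0, scaling by RLE or by the upper quartile, other filters, a replicate block, the libraries of 1 line only and leaving out each library. The scripts were tested on simulated data. No pair of replicates agreed within sampling noise (the smallest chi-square divided by its degrees of freedom was 11.8).

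The labels number replicates 1 to 3 in both arms. Deviations from the group mean of same-numbered libraries correlated at 0.139 to 0.25 in BT549, 0.242 to 0.443 in HCC1806 and 0.149 to 0.348 in MDAMB231. The numbers were read as pairs there, and in MDAMB468 (0.0651 to 0.166) they were not. This division is not sharp. Different-numbered libraries correlated at -0.172 to 0.0344 in BT549 and -0.172 to 0.0392 in MDAMB468. Replicates 1 and 2 of MDAMB468 (0.165 and 0.166) lay above those of BT549 (0.139 and 0.158).

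The 10 genes, the lists and the tests were chosen with earlier results of these data known. Always named were ADAR and the 10 genes. From each list were named the called members with the smallest p (at most 3 per comparison) and the 3 with the smallest p in the mean effect. For likeness the rule gave the genes with the highest r.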

Additional observations from a re-analysis of the deposited data

Results flagged for a closer look

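The effect of shADAR1 on DICER1 differed between the 4 lines when the replicate number was a block in the edgeR fit (joint test, adjusted p = 0.00443). Without the block the same test gave an adjusted p of 0.775. The log2 fold change was 0.35 in BT549, 0.31 in MDAMB231, 0.10 in MDAMB468 and -0.04 in HCC1806. The effect on ADAR itself also differed between lines in the blocked fit (adjusted p = 0.0129), with -2.19 in MDAMB231, -1.94 in BT549, -1.59 in HCC1806 and -1.43 in MDAMB468. The part of the unequal ADAR knockdown in the DICER1 difference was not tested. In MDAMB468 the replicate numbers were not read as pairs, and the block was fitted there too.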

How the results depend on the processing

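The mean rise of DICER1 kept its direction and its call under the 7 alternatives run (log2 fold change 0.17 to 0.19, adjusted p 1.74e-05 to 0.0328) and in the 24 fits without a library (0.17 to 0.20), and all 10 genes kept their difference between lines under the 5 of these alternatives that test it (other scaling, filters and DESeq2, not the block) and in the 24 fits. The number of members called moved with the setting. With the replicate block it was 4 in the mean effect (DICER1, AGO1 and AGO3 higher, AGO2 lower), beside 13.2% of all genes. The block called 2 in BT549 (DICER1 and AGO3, beside 5.14%) and 4 in MDAMB231 (DICER1, AGO1 and TARBP2 higher, AGO2 lower, beside 11.4%). In the test of the difference of the effect between lines it called 1 (DICER1), beside 1002 of 21352 genes. With the block in BT549, HCC1806 and MDAMB231 only, chosen after seeing the data, 2 were called in the mean effect (DICER1 and AGO2, beside 9.55%). No member was called with the block in HCC1806 (beside 2.1%) or MDAMB468 (beside 1.66%). In BT549 DESeq2 called 1 member (beside 2.36%), and edgeR called 1 with at least 10 counts in every library (beside 1.57%). In MDAMB231 no member was called with RLE scaling (beside 2.16%), with no filter on low counts (1.24%) or with the libraries of that line only (0.7%). Without a library 0 to 1 were called there (beside 0.912% to 2.38%). Of the 32 silencing effectors, 4 were called in the mean effect with no filter (beside 1.73% of all genes). As many were called without BT549 shADAR1 replicate 1 or MDAMB468 shNT replicate 2 (beside 2.32% each). In MDAMB231 7 were called with DESeq2 (beside 6.41%) and 5 with at least 10 counts in every library (beside 4.99%). There 1 was called without shADAR1 replicate 1 (beside 0.912%) and 5 without shADAR1 replicate 2 (beside 2.38%).

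The block raised the number of genes called to 2820 in the mean effect (2039 with the block in 3 lines), 1098 in BT549, 448 in HCC1806, 2434 in MDAMB231, 354 in MDAMB468 and 1002 in the difference of the effect. DESeq2 called 1054, 299, 42, 812, 42 and 125 in the same order. With at least 10 counts in every library 185 genes were called in BT549, 16 in MDAMB468, 25 in the difference of the effect and 11287 between lines in shNT, where fewer genes were tested. With no filter 18 were called in HCC1806 and 22 in the difference of the effect. With the libraries of 1 line only BT549 had 226 calls, HCC1806 0, MDAMB231 117 and MDAMB468 21. Without a library they ran from 61 to 108 in BT549, 4 to 15 in HCC1806, 202 to 526 in MDAMB231, 3 to 10 in MDAMB468 and 2 to 14 in the difference of the effect. The cause of these shifts was not tested, apart from the smaller number of genes or libraries.

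Estimates close to 0 changed sign. AGO3 in MDAMB468 was -0.0076 with the libraries of that line and -0.0099 with upper-quartile scaling. DGCR8 in MDAMB231 was -0.00057 with DESeq2, -0.0014 with RLE scaling and -0.0019 with the replicate block. TARBP2 in HCC1806 was -0.0045 with DESeq2, -0.0046 with RLE scaling, -0.0020 with at least 10 counts in every library, -0.0034 with the libraries of that line and -0.0042 with upper-quartile scaling. Without a library the estimates ran from -0.010 to 0.11 for AGO1 in BT549, -0.081 to 0.040 for AGO1 in HCC1806, -0.021 to 0.088 for AGO3 in HCC1806, -0.12 to 0.11 for AGO3 in MDAMB468, -0.066 to 0.15 for AGO4 in BT549, -0.061 to 0.011 for DGCR8 in BT549, -0.073 to 0.048 for DGCR8 in MDAMB231, -0.10 to 0.028 for DICER1 in HCC1806, -0.020 to 0.13 for DROSHA in HCC1806, -0.038 to 0.0094 for EIF4E2 in HCC1806, -0.069 to 0.13 for PRKRA in HCC1806, -0.057 to 0.0081 for PRKRA in MDAMB468, -0.16 to 0.14 for TARBP2 in BT549 and -0.050 to 0.070 for TARBP2 in HCC1806. None of these passed the threshold. The SE of a single-line estimate was smallest for XPO5 (0.08) and largest for TARBP2 (0.15), whose counts were among the lowest.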
